A study of Drosophila melanogaster with 2 samples.

Results

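The 5 homeotic (Hox) genes of the Antennapedia complex of Drosophila melanogaster, lab, pb, Dfd, Scr and Antp, were examined for regions recovered by chromatin immunoprecipitation and sequencing (ChIP-seq) of GFP-tagged Dorsal. Each gene was taken with 10 kb on both sides of its annotated body, and a region counted when its summit, the position of highest enrichment, lay in that window. The 5 windows did not overlap, and they held 7 of the 2718 peaks in the authors' thresholded list and 92 of the 29999 regions in their pooled candidate list. The tissue was whole wandering larvae of the third instar, of mixed sex, from 1 group with 2 biological replicates numbered 3 and 1. All larvae came from a transgenic line, dl-small-GFP, that stably expressed the dl-RC isoform of Dorsal with GFP at its C-terminus. The IP antibody was against GFP, although 1 label field gives dl as the antibody. The labels name no promoter for the transgene and no second condition, and material from whole animals mixes all larval tissues, so no region can be placed in a tissue.

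Hox genes encode homeodomain transcription factors that give the segments along the head to tail axis their identity, and their order on the chromosome follows the order of the segments they pattern. Their expression is kept on or off through development by Trithorax and Polycomb group proteins, which act at elements that often hold GAGA and Pho sequences. Dorsal, a factor of the NF-kB family, sets up the dorsoventral axis in the embryo and later works downstream of Toll in immunity. The peak lists carry no expression values, so whether a Hox gene was transcribed in the larvae was not analysed here.

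The sequence at the summit is shown for all 7 peaks, since these are the regions the results turn on. The highest peak of each gene was to be printed by rule, and the second peak of Dfd and of Antp was added after its values were seen. Each line gives the summit with 60 bases on each side, 5′ to 3′ on the plus strand of dm6, from the release 6 reference assembly. Capitals mark GAGAG, a sequence bound by GAGA factor, and GCCAT, the core of the sequence bound by the Polycomb group protein Pho, or their reverse complements CTCTC and ATGGC. All lie on chromosome arm 3R, and none of these stretches overlaps an annotated UTR.
lab own start, chr3R:6678604-6678724: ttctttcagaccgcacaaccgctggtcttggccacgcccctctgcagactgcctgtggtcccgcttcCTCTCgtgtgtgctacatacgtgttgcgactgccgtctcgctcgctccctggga
pb last intron, chr3R:6708967-6709087: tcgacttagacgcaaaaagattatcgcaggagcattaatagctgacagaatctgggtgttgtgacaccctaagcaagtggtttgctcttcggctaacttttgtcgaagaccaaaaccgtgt
Dfd own start, chr3R:6791699-6791819: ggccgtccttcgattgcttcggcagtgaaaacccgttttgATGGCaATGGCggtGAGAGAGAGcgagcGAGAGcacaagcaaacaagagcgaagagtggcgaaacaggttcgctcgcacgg
Dfd downstream, at lncRNA:CR45915, chr3R:6810790-6810910: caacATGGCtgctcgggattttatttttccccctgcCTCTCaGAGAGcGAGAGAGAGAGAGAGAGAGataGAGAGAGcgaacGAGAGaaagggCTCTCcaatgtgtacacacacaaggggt
Scr own start, chr3R:6850009-6850129: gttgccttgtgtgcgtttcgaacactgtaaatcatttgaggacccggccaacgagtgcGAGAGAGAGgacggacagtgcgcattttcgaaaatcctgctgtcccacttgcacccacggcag
Antp downstream, at lncRNA:CR45559, chr3R:6893237-6893357: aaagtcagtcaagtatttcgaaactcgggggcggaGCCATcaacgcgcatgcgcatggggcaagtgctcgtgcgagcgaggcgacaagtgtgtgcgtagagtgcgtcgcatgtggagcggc
Antp upstream, at lncRNA:CR45899, chr3R:7000721-7000841: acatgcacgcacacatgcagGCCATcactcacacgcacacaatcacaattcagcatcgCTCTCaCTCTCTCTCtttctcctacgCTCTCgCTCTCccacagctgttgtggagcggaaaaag

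Every one of the 5 genes had at least 1 peak in its window. Over all 13968 protein-coding genes on the chromosome arms, 34.4% did, and the median window of those genes was 22.2 kb long, against 30.6 to 123.0 kb for the Hox genes, so longer windows had more room for a peak. The highest signal in the window was above that of 66.2% of all coding genes for Scr, 66.4% for pb, 77.5% for Antp, 79.0% for lab and 85.7% for Dfd. Of all coding genes 65.6% had no peak in the window, and every peak had a higher signal than any candidate that did not pass. The values for Scr and pb are thus near the lowest possible for a gene with a peak. Longer windows also had more room for a high signal. The 7 peaks made up 7.61% of the 92 candidates (exact Clopper-Pearson 95% interval 3.11 to 15.1%). Of the 29970 candidates on all arms 8.98% passed, which lies inside that interval, so the Hox windows were near the background in the share of candidates that passed. These intervals cover the counting of regions only, and the read depth behind the signals is unknown. From 10 kb before lab to 10 kb beyond Antp, 357.8 kb held 8 peaks, or 0.224 per 10 kb, against 0.21 per 10 kb over the whole of 3R.

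**Figure D1:**
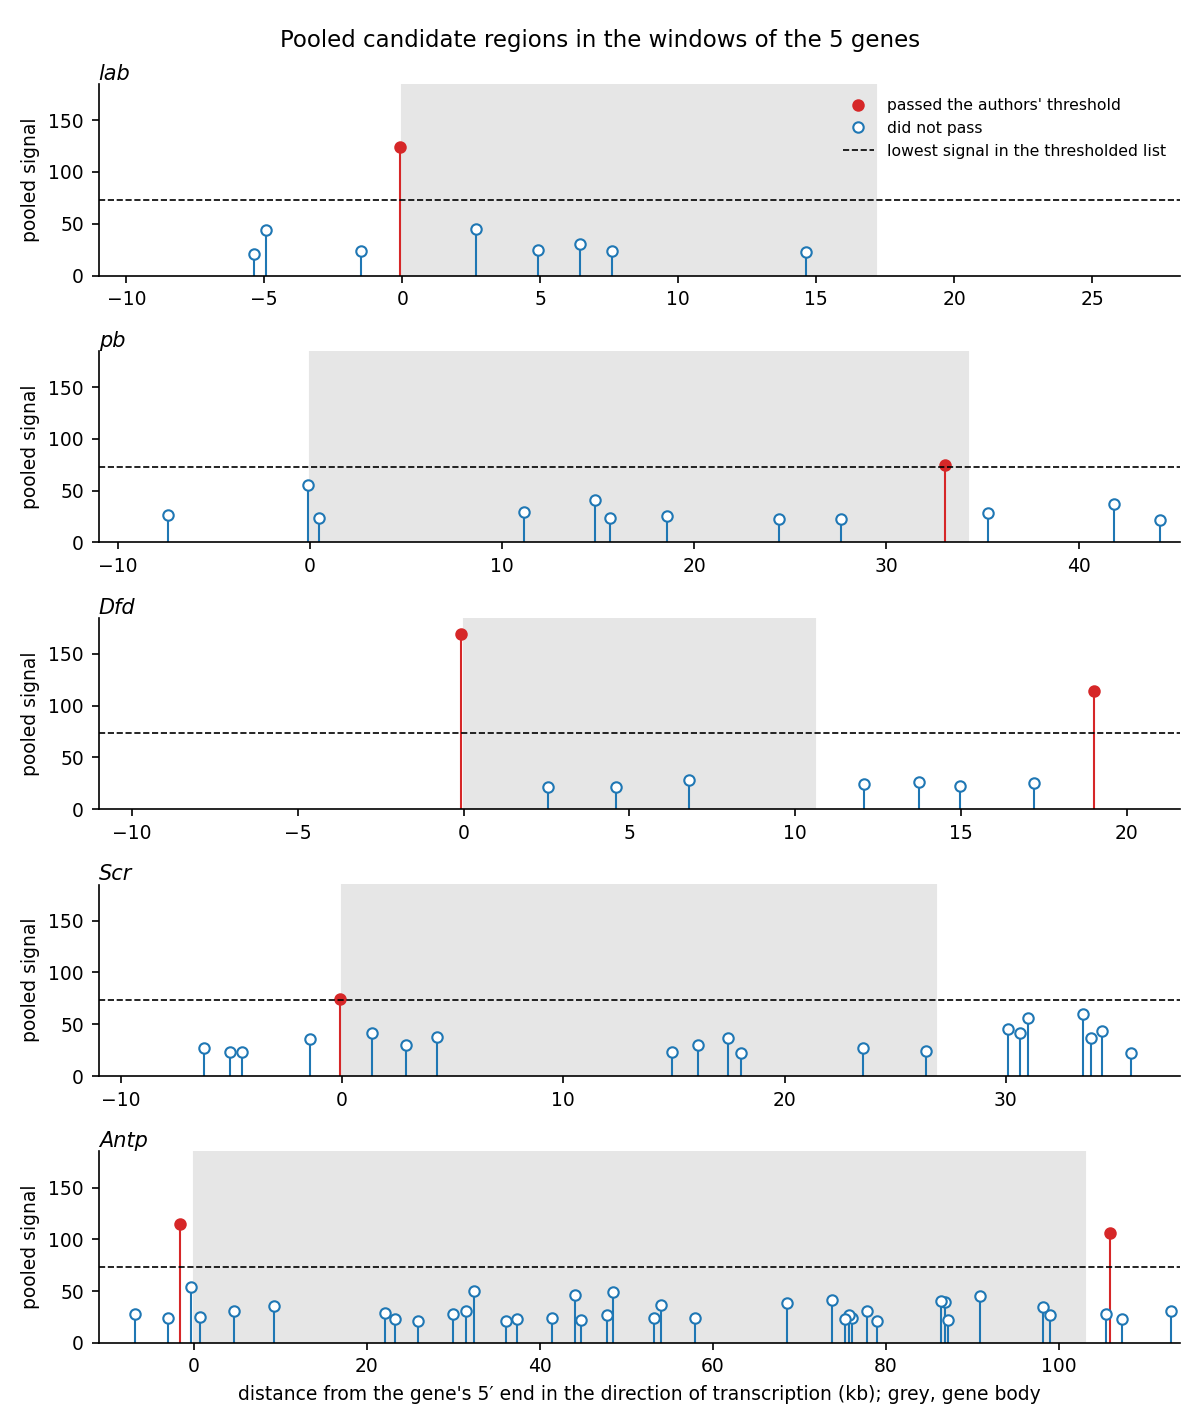
Pooled signal (vertical axis, the authors' enrichment of ChIP over control) of each of the 92 candidate regions against the distance of its summit from the 5′ end of the gene (horizontal axis, kb, in the direction of transcription), with 1 panel a gene. Filled red points are the 7 peaks and open blue points the 85 candidates that did not pass, the dashed line is the lowest signal in the thresholded list (73.3), and 6 of the 7 peaks lie outside the grey gene bodies. Of these 6, 3 lie just upstream of the gene's own start site.

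Of the 7 peaks, 3 lay just upstream of a start site of a Hox gene itself, 3 at the start sites of long noncoding RNAs (lncRNAs) beside Dfd and Antp, and 1 in an intron of pb. With a promoter taken as 500 bp on each side of any annotated start site, 6 of 7 peaks were at promoters (85.7%, exact 95% interval 42.1 to 99.6%), against 1491 of 2690 peaks on all arms (55.4%). Counting only coding start sites, 3 of 7 were. The 55.4% counts start sites of any kind, and the share of all peaks at coding start sites is not given here. Whether the Hox peaks differ from all peaks by that narrower count therefore cannot be read from these values. The median distance to the nearest start site was 88.0 bp for the Hox peaks and 370.5 bp for all peaks. The 3 lncRNA peaks are assigned to Dfd and Antp by the 10 kb rule alone, and their target genes were not tested.

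The gene lab, which patterns the intercalary segment of the head and the larval midgut, is the first of the complex (FBgn0002522, chr3R:6661427-6678590, minus strand). It had 1 peak at chr3R:6678542-6678785, with its summit 74 bp upstream of the distal start site and outside the gene body. The pooled signal was 124.1, rank 1293 of the pooled list. In the single-replicate lists the matching regions had a signal of 73 in list A, at rank 957, and of 78.4 in list B, at rank 1221. Both ranks were within the 2718 best regions of their list, as many as the thresholded list holds, so lab was recovered in both replicates. The other 8 candidates had pooled signals of 21.2 to 44.7, of which 5 lay in introns. None lay within 500 bp of the internal start site at 6663454, but 1 of signal 23.0 lay 514 bp from it. List B held 2 candidates within 500 bp of that site. List A held 3 candidates in the window and list B 8. The authors' signal is not normalised between lists, and nothing in the sources used here ties list A or B to replicate 3 or 1.

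The gene pb, which specifies the adult mouthparts, differed from the rest in the place of its peak (FBgn0051481, chr3R:6707800-6742063, minus strand). Its peak lay at chr3R:6708905-6709148, in the last intron of all 4 annotated transcripts, 33036 bp from the only start site and 372 bp before the last exon. The pooled signal was 75.0 at rank 2623, a little above the lowest signal in the thresholded list, 73.3. In list A the region ranked 6033 with a signal of 22.7 and in list B 3984 with 39.9, so neither single list had it among its best. The region at the pb start site, with a summit 91 bp upstream, did not pass, with a pooled signal of 55.3 at rank 4232. It ranked 3693 in list A and 19845 in list B. The other 11 candidates that did not pass included 1 in a coding exon, with a signal of 40.6.

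The gene Dfd, which acts in the mandibular and maxillary segments, had the highest signal of the 5 genes (FBgn0000439, chr3R:6791836-6802428, plus strand). The peak at chr3R:6791637-6791880 had its summit 77 bp upstream of the only start site. Its pooled signal was 169.7, at rank 801, and it ranked 1148 in list A (signal 64.3) and 600 in list B (signal 120.6). Both lists thus held it among their best. A second peak at chr3R:6810728-6810971 had its summit 31 bp inside the exon of lncRNA:CR45915. It lay 19014 bp downstream of the Dfd start, within lncRNA:CR42651 and near mir-10, a conserved microRNA of Hox clusters. Its pooled signal was 114.5, at rank 1451. In list A it ranked 848, the best of the 7 peaks there, and in list B 4284, outside the best regions. Between these peaks the 7 remaining candidates of the window reached only 28.6.

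The gene Scr, which specifies the labial segment and the prothorax and is needed to form the salivary glands, had 21 candidates, or 4.48 per 10 kb, against a median of 1.89 over the windows of all coding genes (FBgn0003339, chr3R:6823120-6849981, minus strand). List A held 10 candidates in the window and list B 24. A single pooled one passed, at chr3R:6849947-6850190, with its summit 88 bp upstream of the distal start site. Its pooled signal of 74.4 at rank 2656 was the lowest of the 7 peaks, and it ranked 2957 in list A and 4605 in list B, just outside and well outside the best regions. A candidate at the internal start site 6848505 had a signal of 41.2 and did not pass. The highest signals below the threshold in any of the 5 windows lay beyond the 3′ end of Scr. These were a region 133 bp upstream of lncRNA:CR42651 at chr3R:6816390-6816633, with a signal of 59.4, and an intergenic region at chr3R:6818837-6819080, with a signal of 55.8. List B held both among its best, at ranks 2389 and 2595, while list A held the first at rank 11238 and the second not at all. The second is 935 bp from the nearest of 4 tRNA:Lys-TTT genes, which lie there with 2 7SL RNA genes. These small RNA genes have near-identical copies, so how reads were placed among the copies is uncertain.

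The gene Antp, which directs the identity of the thorax and its legs, spans 103.0 kb (FBgn0260642, chr3R:6896253-6999228, minus strand). Its body held 32 candidates and no peak. Among the 86 coding genes at least as long, Antp included, 43 had no peak in the body and the median was 0.5 peaks. Peaks stood on both sides of the gene, 107.5 kb apart, with 34 candidates between them. The upstream peak, chr3R:7000659-7000902, lay 1553 bp before the distal start site and 289 bp into the exon of lncRNA:CR45899. It had a pooled signal of 115.2 at rank 1429, and ranked 2707 in list A (signal 37.2) and 2312 in list B (signal 53.2). The downstream peak, chr3R:6893175-6893418, lay 165 bp into the exon of lncRNA:CR45559. It had a pooled signal of 106.0 at rank 1609, and ranked 1459 in list A (signal 55.4) and 2380 in list B (signal 52.4). Both peaks were among the best 2718 regions of both lists, but the upstream peak was only just inside them in list A, at rank 2707.

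At the 3 start sites of Antp itself no peak was found. The distal start site, 6999228, had a candidate 279 bp upstream with a pooled signal of 54.4, at rank 4352. In list A the matching region ranked 2818, just outside the best, and list B had none there. The 2 internal start sites, 6958370 and 6932840, had no pooled candidate within 500 bp, although a pooled one of signal 24.0 lay 548 bp from 6958370. Within 500 bp, list A held 1 candidate at each site, at ranks 13347 and 12656. List B held 1 at 6932840, at rank 29208. An intronic region 8516 bp upstream of the start site at 6958370 was among the best of list A, at rank 2522, had a pooled signal of 50.4 and had no candidate in list B. The coding gene CG46458 is annotated over the 3′ part of Antp, and candidates there cannot be given to either gene alone.

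**Figure D2:**
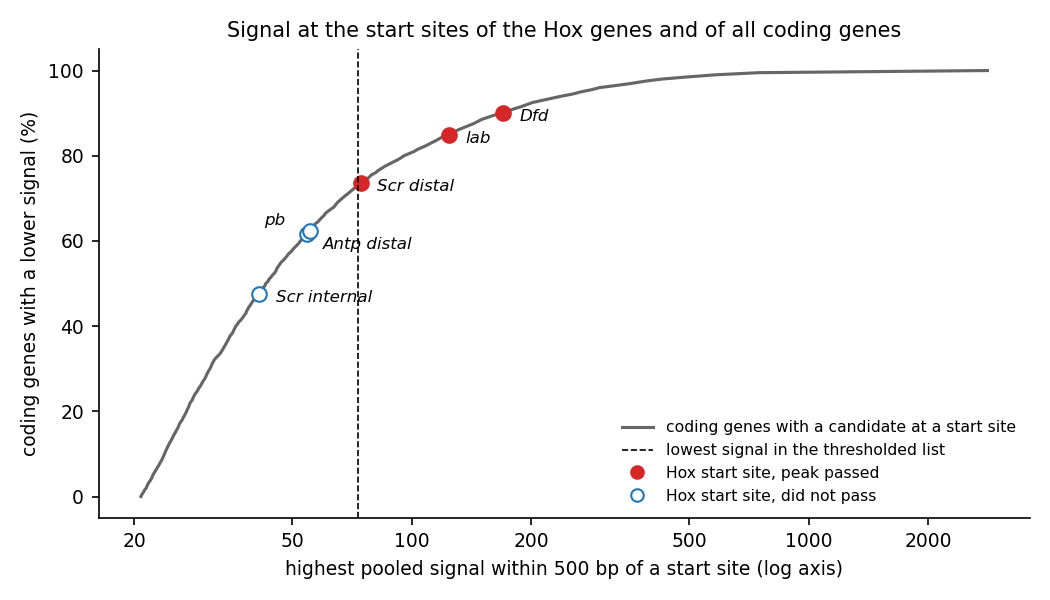
Highest pooled signal within 500 bp of a start site (horizontal axis, log scale) against the percentage of coding genes with a lower signal (vertical axis). The grey line holds the 4575 coding genes with a candidate there, filled red points are Hox start sites with a peak, open blue points those whose candidate did not pass, and the dashed line is the lowest signal in the thresholded list; Dfd is highest at 169.7 and the internal Scr site lowest at 41.2.

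The 5 genes differed at their own start sites. Of 9 annotated start sites, 3 had a peak (lab, Dfd and the distal site of Scr), 3 had a candidate that did not pass (pb, the distal site of Antp and the internal site of Scr), and 3 had no pooled candidate within 500 bp. Of the 4575 coding genes with a candidate at a start site, 90.1% had a lower signal than Dfd, 85% lower than lab and 73.7% lower than Scr at its distal site. For pb it was 62.3% and for the distal Antp site 61.6%. Within 1000 bp of a start site a peak was present for 3 of the 5 genes, against 10.8% of all coding genes. With 5 genes of 1 complex this share is a description and was not tested.

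The order of the 7 peaks by signal depended on the list. In the pooled list it ran Dfd own start, lab, Antp upstream, Dfd downstream, Antp downstream, pb and Scr, with signals of 169.7, 124.1, 115.2, 114.5, 106.0, 75.0 and 74.4. Of the 21 pairs of peaks, 13 stood in the same order in both single lists. The peaks of lab and Dfd at their own start sites were above both Antp peaks, Scr and pb in each list. The peaks of lab and of Dfd at its own start changed places between the lists, as did both Antp peaks, and Scr and pb. The Dfd downstream peak moved most, as it was first of the 7 in list A and sixth in list B. Of the 7 peaks, 4 were in the best regions of both lists (57.1%, exact 95% interval 18.4 to 90.1%), against 58.3% of all 2690 peaks on the arms. Of the 6 Hox peaks with pooled signals of 74.4 to 124.1, 3 were in the best of both lists (50%, exact 95% interval 11.8 to 88.2%), against 415 of all 1361 peaks in that range (30.5%). That range was set by the Hox peaks themselves, and its interval includes the 30.5%. The 3 include the upstream Antp peak, which was only just inside the best of list A, at rank 2707. All 7 overlapped a candidate of both lists at some rank, against 92.2% of all peaks. Since the pooled list was called on the same alignments, part of this overlap is built in. The 85 candidates that did not pass were found in both lists in 7 cases (8.24%), against 18.0% of all such candidates.

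**Figure D3:**
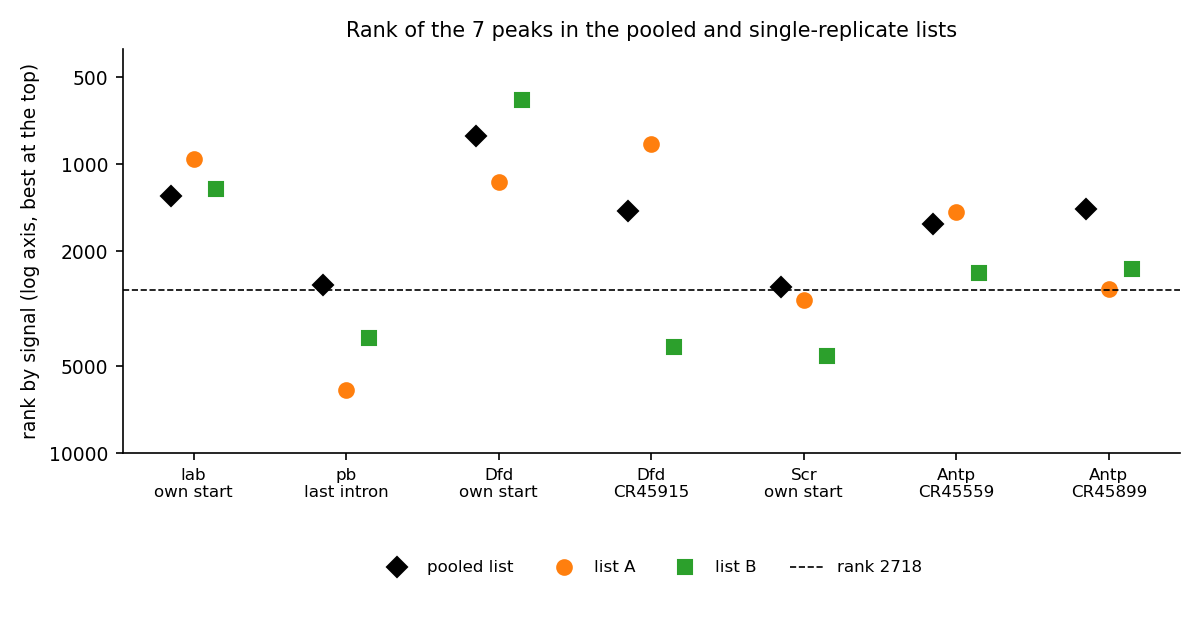
Rank by signal (vertical axis, log scale, best rank at the top) of the 7 peaks in the pooled list (diamonds), list A (circles) and list B (squares). The dashed line is rank 2718, the size of the thresholded list. The peaks of lab, Dfd at its own start and both Antp peaks lie above it in every list. The upstream Antp peak is only just above it in list A, at rank 2707. The peaks of pb and Scr lie below it in both single lists.

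The −log10 q-value, also deposited by the authors' caller, did not separate the peaks further. It was 3.54 for 5 of the 7 peaks, the highest value in the thresholded list and one shared by 1715 regions, and 2.36 for pb and 2.33 for Scr. All 7 peaks had the same width of 244 bp, which was also the median of all peaks. The GC content within 100 bp of the summit ran from 41.3% at pb to 59.2% at lab, with a median of 52.7%, against 49.8% over all peaks and 43.3% over the 85 Hox candidates that did not pass.

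GAGA sequences were found in the Hox peaks about as often as in other peaks. GAGAG was present within 100 bp of the summit, on either strand, in 5 of 7 peaks (71.4%, exact 95% interval 29.0 to 96.3%), against 76.3% of all peaks, and GAGAGAG, which contains it, in 4 of 7 (57.1%), against 43.9%. Matches were counted with overlaps, and the number in a peak ran from 0 to 14. The downstream Dfd peak held 14 matches of GAGAG over its summit, the upstream Antp peak 6, Dfd at its own start 5 and Scr 4, while lab held 1. The pb peak and the downstream Antp peak held none. Of the 85 Hox candidates that did not pass, 7.06% held GAGAGAG, against 5.58% of all such candidates.

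GCCAT, the core of the Pho site, was present in 6 of 7 Hox peaks (85.7%, exact 95% interval 42.1 to 99.6%), lab being the exception, against 28.7% of all peaks. Of the 1491 promoter peaks on all arms 27.2% held it, and 38.8% of the 85 Hox candidates that did not pass did, against 33.6% of all such candidates. The Dfd peak at its own start and the downstream Antp peak held 3 matches each, and 3 or more were found in 1.23% of all peaks. The upstream Antp peak held 2, and pb, Scr and the downstream Dfd peak 1 each. Within 50 bp of the summit 3 of 7 held GCCAT, against 14.5% of all peaks, and no interval is given for that share. Within 150 bp 6 of 7 did, against 39.3% of all peaks. It was 1 of 8 motifs searched, 7 peaks of 1 complex are few, and a match does not show that Pho was bound.

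The dl consensus, GGG and CC joined by A and T bases and followed by A or C, had no match in the 7 Hox peaks, which allows a share of up to 41.0% by the exact interval, against 1.52% of all peaks. It was present at 3 of the 85 candidates that did not pass (3.53%), against 1.39% of all such candidates. One of the 3 was the intergenic region beyond the 3′ end of Scr described above, and the other 2 lay in the window of Antp, with pooled signals of 28.0 and 22.6. A wider kappaB pattern, GGG and CC with any 5 bases between, was present in 2 of 7 peaks, those of lab and the downstream Antp site, against 11.7% of all peaks. Of the sequences that Hox proteins bind themselves, the homeodomain core TAATTA was in none of the 7 peaks, against 3.61% of all, and TGATNNAT, bound by Hox proteins together with exd, in 1 (Scr), against 4.87%. The repeat GTGTGT was in 4 of 7, against 30.1%.

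**Figure D4:**
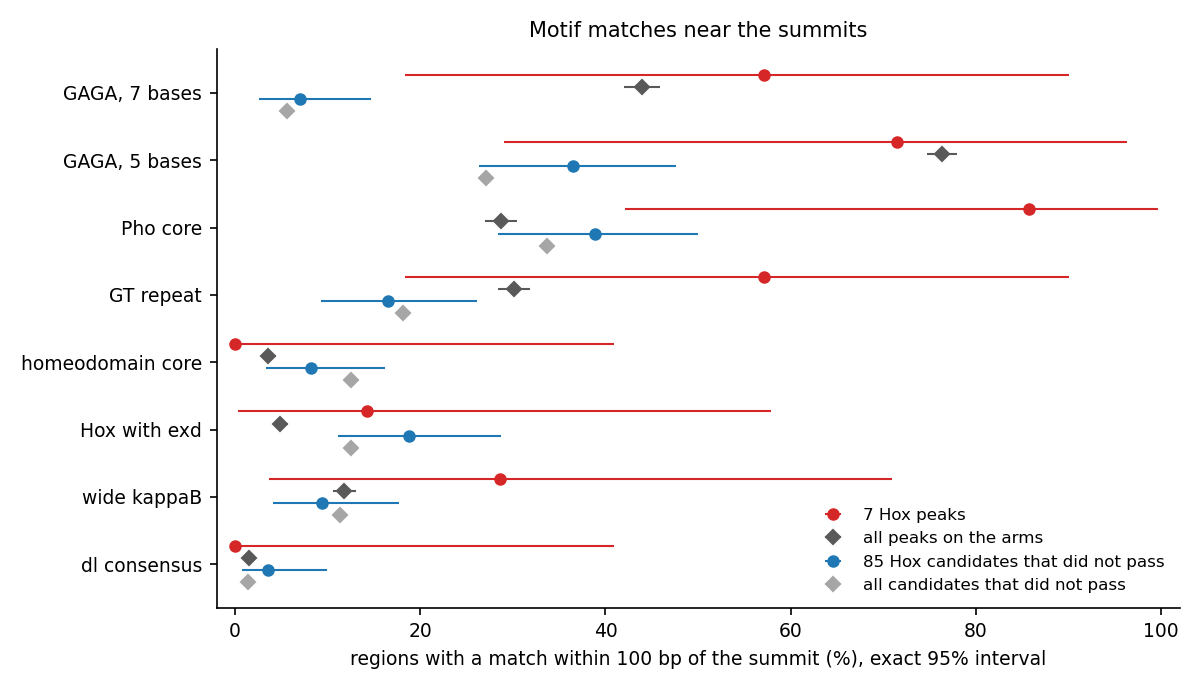
Share of regions with a motif match within 100 bp of the summit (horizontal axis, %), for the 7 Hox peaks (red), all peaks on the arms (dark grey), the 85 Hox candidates that did not pass (blue) and all candidates that did not pass (light grey), with exact 95% intervals. The interval of the 7 peaks is wide for every motif. For the Pho core it starts at 42.1%, above the 28.7% of all peaks. The Pho core was among 8 motifs chosen with earlier results of these data known. The 7 peaks lie in the same complex and no enrichment test was run, so this difference is a description only. Within 50 bp of the summit the Pho core was in 42.9% of the 7 peaks, against 14.5% of all peaks, with no interval given. Within 150 bp it was in 85.7%, against 39.3% of all peaks.

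The neighbours of the Hox genes in the complex carried 1 peak outside the windows. The 5 other genes listed from the complex are zen, zen2, bcd, Ama and ftz, of which bcd encodes the anterior morphogen of the egg and ftz a pair-rule factor. The peak, chr3R:6759567-6759810, lay at the start site of bcd with a signal of 111.5, and it also counted for zen and Ama within 10 kb. By that rule 3 of these 5 genes had a peak, against 34.4% of all coding genes, through 1 shared region, and zen2 and ftz had none. The 3 bithorax Hox genes Ubx, abd-A and Abd-B, which pattern the posterior thorax and abdomen, had 3, 3 and 1 peaks. Each of the 3 had a peak no more than 1000 bp from a start site, as did 10.8% of coding genes. A peak anywhere in the window was found for 34.4% of coding genes. The windows of Ubx, abd-A and Abd-B were 97.8, 42.8 and 65.0 kb long. The median window of coding genes was 22.2 kb, so these 3 had more room for a peak. The highest signals in the 3 windows were 160.1, 111.7 and 100.3. Of their 7 peaks, 4 held GCCAT, against 28.7% of all peaks. The bcd peak held none. Of 6 partners and co-regulators of Hox proteins, 5 had a peak in the window, against 34.4% of all coding genes. The peaks were 4 at hth, 2 each at tio, disco and disco-r and 1 at tsh, and exd had none. The windows of these 6 genes ran from 24.0 kb for exd to 152.0 kb for hth. The highest signal among these genes was 362.8 at tio, and 4 of their 11 peaks held GCCAT.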

How the data were processed

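Per the labels, ChIP-seq was done on dl-small-GFP larvae, with sonicated fragments of 175 to 275 bp in replicate 3 and 200 to 275 bp in replicate 1. Per the deposited description files, there were 4 dm6 lists: candidates called on each ChIP alignment against the control (lists A and B), candidates called on both alignments pooled, and peaks thresholded by the irreproducible discovery rate. The deposited signal is the authors' enrichment of ChIP over control per region, and the deposited −log10 value is their q-value. Which aligner, caller and threshold were used is not given in the sources used here. Read depth is unknown. The 4 dm3 lists were not used.

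The gene models were those of Ensembl release 115 (BDGP 6.54), leaving out pseudogenes and transposable elements. The release 6 assembly supplied the bases. All dm6 regions ended within its chromosome lengths. Summit counts and motif searches used Python 3.11.15 with pandas 2.3.3 and were tested on simulated data, and scipy 1.17.1 gave exact Clopper-Pearson 95% intervals. No enrichment test was run, so all comparisons are descriptions. Other flanks, promoter and motif windows, a stricter signal and each single list were tried. The 5 genes, gene lists and motifs were chosen with earlier results of these data known. By rule, all peaks of the 5 windows and the highest candidates that did not pass were described.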

Additional observations from a re-analysis of the deposited data

How the results depend on the processing

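Over 68 alternatives, 46 values stayed within 1.5 times of the reported count or inside the interval of the reported share. The intervals over 7 peaks are wide, so a share could move far and still count among the 46. The share at promoters fell from 85.7% to 42.9% with coding start sites only. With GCCAT it fell from 85.7% to 42.9% within 50 bp of the summit, and both were inside the interval. Counting gene bodies only left 1 peak in all, that of pb, with 0 at lab, Dfd, Scr and Antp, and lowered the share of candidates that passed to 1.75%. Of the peaks left out, those of lab, Dfd at its own start and Scr lay only 74, 77 and 88 bp outside the body, upstream of the gene's own start. At or above the median signal of the thresholded list, 2 peaks remained, 1 at lab and 1 at Dfd, with 0 at pb, Scr and Antp. The share that passed was then 2.17%, and 100% of these 2 peaks were at promoters. A flank of 5 kb left 1 peak at Dfd, and a flank of 20 kb gave 2 at pb, by adding the bcd peak, and 2 at Scr, by adding the downstream peak of Dfd. With candidates of any rank, 100% of the 7 peaks were found in both lists.

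With each single list in place of the thresholded list, the count was 6 in both over all windows, 1 in both for lab, 0 in both for pb, 1 to 2 for Dfd, 0 to 2 for Scr and 2 to 3 for Antp. The share among the best was 7.23 to 8.82%, at promoters 83.3% in both, with GAGAGAG 33.3 to 50% and with GCCAT 83.3% in both. The GCCAT alternatives were chosen after seeing the data. No paired analysis was possible because there is 1 group. Depth is unknown, so regions that missed the threshold cannot be called unbound.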
